A study of Mus musculus with 4 samples.

Results

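The C/EBP transcription factors were followed across the cells of the mouse brain vasculature, through 5 genes taken by symbol from the gene column of the matrices: Cebpa, Cebpb, Cebpd, Cebpg and Cebpz. All 5 were found among the 31053 genes of the series. The cells came from 4 libraries of brain vascular-associated cells (BVACs), isolated with anti-CD31 microbeads and mechanical and enzymatic dissociation, and sequenced with a droplet-based 3′ assay. WT male C57BL/6 mice, 12 to 14 weeks old, either lived for 14 days beside an aggressive CD-1 male and met it for 5 minutes daily (chronic social defeat, CSD) or were housed in pairs, with a partition always between them (home cage, HC). The sources differ on the HC partner, which the study's methods give as a CD-1 mouse and the sample labels leave unnamed. Each library pooled the cells of 4 mice, so that n = 2 libraries per condition, named CSD 1, CSD 2, HC 1 and HC 2, and p-values measure the spread between pools.

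C/EBP proteins are basic leucine zipper factors that bind DNA as pairs, with themselves or with each other. Cebpa is best known for driving myeloid and fat cell differentiation, and Cebpb and Cebpd are acute-phase genes that respond to IL-6, IL-1 and glucocorticoids. Cebpg has a zipper but lacks the activation domains of its relatives and works mainly as a partner, whereas Cebpz, which shares the name, is a CCAAT-binding protein without the zipper that acts in ribosome production.

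The members lie at 4 loci in GRCm38 (GENCODE M21). Cebpb is a gene of 1 exon on chromosome 2, chr2:167688915-167690418 on the plus strand. Cebpa (chr7:35119293-35121928, plus strand) and Cebpg (chr7:35046422-35056573, minus strand) are neighbours, with 62720 bases between them. Cebpd lies at chr16:15887286-15891031 on the plus strand, and Cebpz, with up to 16 exons, at chr17:78919006-78937066 on the minus strand. Every member overlaps another annotated gene, Tmem189 for Cebpb, Spidr for Cebpd, Cebpzos for Cebpz, Gm45091 for Cebpa and 3 gene models for Cebpg. The partners of Cebpa, Cebpb, Cebpd and Cebpz lie on the strand opposite to the member. Whether reads were counted by strand is not given in the sources used here. Whether the counts of members hold reads of these partners was not tested.

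The promoters of Cebpa, Cebpb and Cebpg are shown because the RefSeq table held these members, and their levels, given further on, were spread differently over the cell classes. The 250 bases before the start come from RefSeq (GRCm38.p6), where 3 of the 5 members were matched. Capitals mark any match, on either strand, to the TATA box (letters TATAAA), the CCAAT box, the cAMP response half-site (letters TGACG), the C/EBP core (letters TTGCNNAA) or the STAT site (letters TTCNNNGAA).
Cebpa, chr7:35119043-35119292, plus strand: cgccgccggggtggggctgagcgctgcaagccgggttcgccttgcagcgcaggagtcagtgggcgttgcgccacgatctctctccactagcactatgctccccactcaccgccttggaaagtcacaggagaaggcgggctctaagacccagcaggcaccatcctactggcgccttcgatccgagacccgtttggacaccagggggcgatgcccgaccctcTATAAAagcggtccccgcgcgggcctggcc
Cebpb, chr2:167688665-167688914, plus strand: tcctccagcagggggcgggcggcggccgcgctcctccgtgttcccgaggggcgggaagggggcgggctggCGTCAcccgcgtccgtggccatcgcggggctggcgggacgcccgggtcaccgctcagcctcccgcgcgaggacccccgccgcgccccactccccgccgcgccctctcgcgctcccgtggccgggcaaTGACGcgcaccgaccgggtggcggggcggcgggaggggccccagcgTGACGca
Cebpg, chr7:35056567-35056816, minus strand: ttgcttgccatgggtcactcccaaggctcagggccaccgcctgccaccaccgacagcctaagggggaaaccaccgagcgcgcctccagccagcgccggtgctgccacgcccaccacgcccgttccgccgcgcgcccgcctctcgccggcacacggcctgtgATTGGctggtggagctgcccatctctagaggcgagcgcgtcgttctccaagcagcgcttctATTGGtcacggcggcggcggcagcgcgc

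The 3 windows held different letters. Cebpa had 1 TATA box, 30 to 25 bases before the start, a motif found in 12.4% of 32851 promoter windows of this length. Cebpb had 3 cAMP response half-sites, the nearest 7 to 3 bases before the start, and 17.8% of all windows held at least 1. Cebpg had 2 CCAAT boxes, 89 to 85 and 28 to 24 bases before the start, and 33.8% of windows held at least 1. Neither the C/EBP core (9.56% of windows) nor the STAT site (7.02%) was spelled in these 3 windows. The GC content was 66.4% for Cebpa, 81.6% for Cebpb and 70.8% for Cebpg, against a median of 52.4% over all windows. A match in letters is no evidence of binding.

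A barcode was taken as a cell with at least 500 UMIs (unique molecules), at least 250 genes and at most 25% mitochondrial UMIs, which left 14415 cells, 2553 to 4934 per library, from 27297599 to 30361474 UMIs per library. CSD 2 stood apart: 32.6% of its UMIs lay in cells, against 51.8% to 56.8% in the other libraries, and 5208 of its barcodes failed the mitochondrial limit. Libraries shared at most 9 cell barcodes. Of all cells, 93.5% fell in 1 of 16 classes gated by marker genes, and the 8 classes with at least 10 cells in every library were tested, as were capillary, arterial and venous EC. The labels call the cells neurovascular, and EC (5348 cells) and microglia (4541 cells) were the most numerous. The CD31 capture also brought choroid plexus cells (1703 cells), pericytes (406 cells) and arterial smooth muscle cells (SMC, 411 cells). Levels are given as CPM, the UMIs of a gene in a class of one library scaled to a class total of 1000000 UMIs.

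Cebpa was highest in microglia. Its level in microglia was 259 CPM in CSD 1, 239 in CSD 2, 186 in HC 1 and 131 in HC 2. The next of the 8 tested classes, ependymal cells, reached at most 17.3 CPM, and the fitted difference was 4.70 ± 0.26 on the log2 scale (SE, adjusted p = 1.13e-21, edgeR's quasi-likelihood test). In that contrast 69.3% of all genes passed. No other neighbours in the order of Cebpa levels were distinguished, ependymal cells from astrocytes (43.8% of genes passed) and EC from pericytes (30.2%) included. Free RNA, read in barcodes of at most 100 UMIs, held 11.6 to 21.7 CPM of Cebpa, so the levels of the other tested classes lay within or below the range of free RNA. Of the subtypes, venous EC of CSD 1 lay above it, with 2 UMIs. Border-associated macrophages, related myeloid cells with too few cells for a test, had 121, 110, 59.5 and 0 CPM.

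**Figure D1:**
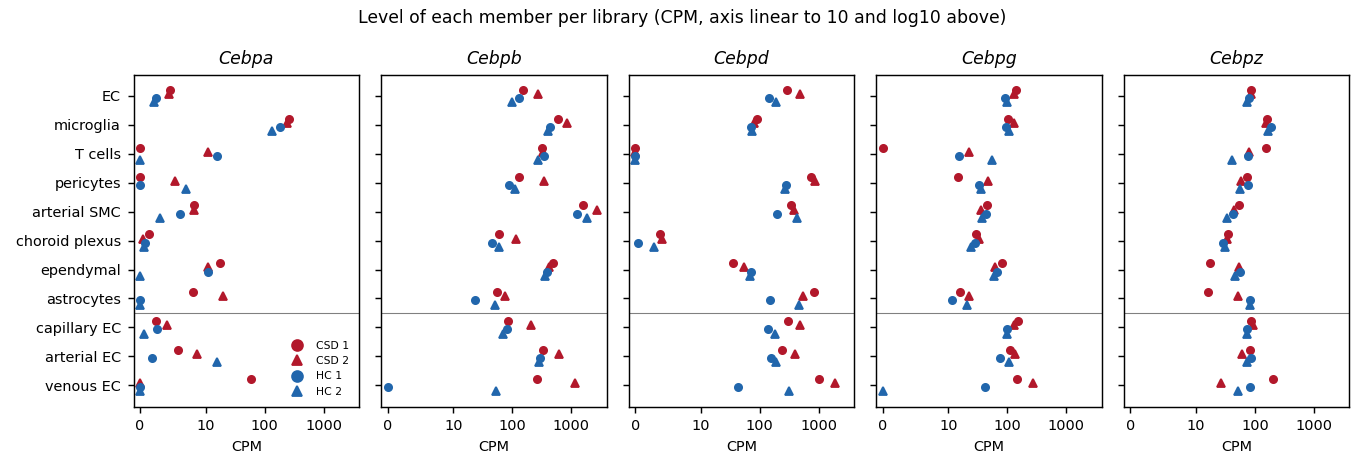
Level of the 5 members in CPM (x axis, linear to 10 and log10 above) in each tested class and, below the line, EC subtype, with one point per library (red CSD, blue HC, circle library 1, triangle library 2). Cebpa is high in microglia, Cebpb is highest in arterial SMC, and Cebpd is highest in pericytes, astrocytes and venous EC and 0 in T cells.

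Cebpb was present in every tested class and, of these, highest in arterial SMC. It measured 1591 CPM in CSD 1, 2734 in CSD 2, 1263 in HC 1 and 1848 in HC 2, a mean of 1859 ± 631 (SD, n = 4). Microglia followed at 574 ± 206 CPM, 1.54 ± 0.16 lower on the log2 scale (SE, edgeR adjusted p = 1.56e-11, where 60.2% of genes passed). Ependymal cells (417 ± 59.3 CPM) lay below microglia by 0.74 ± 0.17 on the log2 scale (edgeR adjusted p = 0.00021, 69.3% of genes passed), a call lost without TMM scaling (0.36, adjusted p = 0.055). T cells had 320 ± 32.8 CPM and were not distinguished from ependymal cells (edgeR adjusted p = 0.086).

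Below T cells came pericytes at 170 ± 120 CPM, lower by 1.003 ± 0.28 on the log2 scale (edgeR adjusted p = 0.0047, 30.8% of genes passed), which lost its call without HC 1 (0.78, adjusted p = 0.066). Pericytes and EC (164 ± 73.7 CPM) were not distinguished. Choroid plexus cells (70.0 ± 30.1 CPM) lay below EC by 0.41 ± 0.17 (edgeR adjusted p = 0.025, 79.8% of genes passed), a call lost without HC 1 (0.32, adjusted p = 0.13), and above astrocytes (51.6 ± 21.4 CPM) by 1.15 ± 0.30 (adjusted p = 0.0010, 55.4%), lost without TMM scaling (0.36, adjusted p = 0.32). The libraries of these last 2 classes lay at 23.2 to 114 CPM, against 95.5 to 131 CPM of Cebpb in free RNA, and the HC libraries of pericytes and EC lay near that range. Within EC, arterial EC held 382 ± 159 CPM and capillary EC 112 ± 66.8 CPM. Venous EC (374 ± 550 CPM) exceeded capillary EC by 1.75 ± 0.28 on the log2 scale (edgeR adjusted p = 4.76e-07, 3.24% of genes passed), but without CSD 2 the difference was 0.30 (adjusted p = 0.83).

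Of the 8 tested classes, pericytes, astrocytes and arterial SMC had the highest mean Cebpd. Pericytes held 539 ± 312 CPM, astrocytes 494 ± 278 CPM and arterial SMC 335 ± 97.7 CPM. Neighbours among these 3 classes were not distinguished (28.9% and 45.9% of genes passed). The astrocyte level came from a small part of the cells. Cebpd was read in a mean of 13.8% of astrocytes, 25.5% of EC, 37.2% of pericytes and 50.3% of arterial SMC. With every cell thinned to the same depth, these shares were 7.09%, 9.78%, 19.8% and 12.6%, against 3.67% of microglia. In HC 1, the 13 astrocyte UMIs of Cebpd lay in 2 of 50 cells. EC followed at 275 ± 153 CPM, lower than arterial SMC by 0.58 ± 0.23 on the log2 scale (edgeR adjusted p = 0.036, 46.7% of genes passed). That step lost its call without TMM scaling (0.34, adjusted p = 0.23) and without HC 2 (0.29, adjusted p = 0.39).

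Microglia carried little Cebpd, 78.3 ± 8.60 CPM, below EC by 1.31 ± 0.23 on the log2 scale (edgeR adjusted p = 1.93e-06, 66.6% of genes passed). Choroid plexus cells had 2.82 ± 1.66 CPM, 3.81 ± 0.43 below ependymal cells on the log2 scale (edgeR adjusted p = 2.50e-10, 57.2% of genes passed). No UMI of Cebpd was read in 119 T cells, which allows up to 2.52% of cells with a UMI and a level of up to 10.4 CPM (3 counts over the 4 libraries). This limits cells with a UMI, not cells that express the gene. Cebpd was also at 0 in B cells, oligodendrocytes and neurons, each with 40 cells or fewer. Free RNA held 27.0 to 79.0 CPM of Cebpd, so that microglia and ependymal cells lay within or near the background. Among EC subtypes, venous EC (814 ± 821 CPM) exceeded capillary EC (275 ± 153 CPM) by 1.48 ± 0.20 on the log2 scale (edgeR adjusted p = 1.64e-09, 3.24% of genes passed). This rested on the CSD libraries (1021 and 1878 CPM in venous EC), as HC 1 ran the other way, with 42.0 CPM in venous and 136 in capillary EC. Capillary and arterial EC (244 ± 106 CPM) were not distinguished.

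Cebpg and Cebpz reached means of at most 115 and 168 CPM in any of the 8 classes. Cebpg measured 115 ± 23.7 CPM in EC and 108 ± 14.2 CPM in microglia. The order of these 2 depended on scaling: EC lay below microglia by 0.30 on the log2 scale with TMM factors (edgeR adjusted p = 0.043, 66.6% of genes passed), and above by 0.10 without them (adjusted p = 0.50). Microglia exceeded ependymal cells (67.4 ± 10.1 CPM) by 1.01 ± 0.19 on the log2 scale (edgeR adjusted p = 4.64e-06, 69.3% of genes passed). The other 5 classes lay between 17.8 and 40.0 CPM in the mean, near the 26.8 to 29.6 CPM of free RNA. Of the 8 classes, Cebpz was highest in microglia (168 ± 13.6 CPM), above T cells (86.8 ± 46.3 CPM) by 1.40 ± 0.29 on the log2 scale (edgeR adjusted p = 9.07e-05, 36.4% of genes passed). No further neighbours in the order of Cebpz levels were distinguished, nor did EC subtypes differ in either gene.

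Classes too small for a test gave single values. Fibroblasts, 67 cells in all, had Cebpb at 1612, 1903, 563 and 892 CPM in CSD 1, CSD 2, HC 1 and HC 2, and Cebpd at 995, 1609, 465 and 789 CPM. In both genes the HC libraries of fibroblasts lay below the CSD libraries, from 8 to 32 cells per library. The share of all genes with this order was not computed for fibroblasts, so the order is a description. The 16 neutrophils had 4192 CPM of Cebpb in CSD 1, 10192 in CSD 2 and 246 in HC 2, from 11, 2 and 3 cells. HC 1 held no neutrophils, so no order of the conditions is read from these values. The 12 Ccr2 monocytes had 675 to 5140 CPM of Cebpb, from 1 to 5 cells per library. Oligodendrocyte precursor cells had Cebpd at 64.9 to 149 CPM and Cebpa at 0 in 3 of 4 libraries.

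The makeup of the family differed between classes. Of the UMIs of Cebpa, Cebpb, Cebpd and Cebpg together, Cebpb took 82.6% ± 3.0 in arterial SMC and 58.8% ± 4.8 in microglia, but 22.8% ± 5.8 in pericytes and 10.0% ± 2.8 in astrocytes (SD over 4 libraries). Cebpd took 85.2% ± 4.6 in astrocytes and 71.2% ± 8.7 in pericytes, against 8.5% ± 1.8 in microglia. Cebpa took 21.2% ± 3.5 in microglia and at most 1.8% in the mean of any other tested class or subtype. Arterial and capillary EC differed as well: Cebpb took 51.3% ± 4.1 and 21.7% ± 4.9, and the ranges over libraries, 47.4% to 56.1% and 15.7% to 25.6%, did not overlap. Arterial SMC markers summed to 4844 to 8290 CPM in arterial EC and to 715 to 2032 in capillary EC, and their part in the Cebpb level and share of arterial EC was not tested. The 3′ assay reads 1 end of each transcript, so no length scale was used, and a share is compared only for the same gene between classes.

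**Figure D2:**
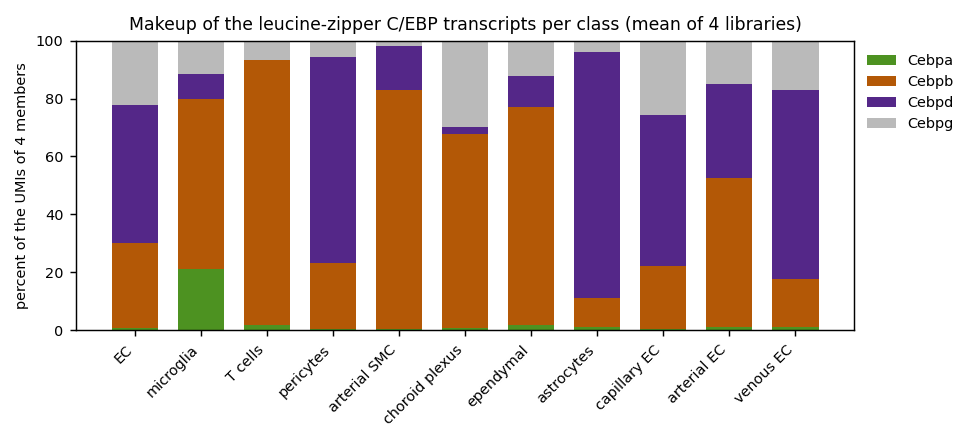
Mean percent (y axis, over 4 libraries) that each of 4 C/EBP genes takes of their summed UMIs in each tested class and EC subtype (x axis). Cebpb fills most of the bar in arterial SMC, T cells, ependymal cells, choroid plexus cells, microglia and arterial EC. Cebpd does so in pericytes, astrocytes, venous EC and capillary EC, and Cebpa takes a visible part only in microglia.

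Shares of cells with a UMI followed depth. Cebpb was read in 80.8% ± 5.0 of arterial SMC and 58.6% ± 13.5 of microglia, and Cebpa in 36.6% ± 12.97 of microglia (SD, n = 4). With each cell thinned to 500 UMIs, which leaves out no cell, these shares were 42.7%, 21.7% and 9.68%. Cebpa was read in 0.64% of EC, a class that should lack it, and the median depths were 890 to 1558 UMIs in EC and 1868 to 4902 in microglia. Choroid plexus cells had a UMI of Cebpb in 43.3% of cells, with medians of 10900 to 24343.5 UMIs per cell, and in 3.17% after thinning.

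CSD against HC was tested in 35 of the 55 pairs of a member with a class or subtype. The other 20 failed the filter on low counts, 9 of them for Cebpa. In 25 of the 35, both CSD libraries lay above both HC libraries, in 2 both lay below, and in 8 they overlapped. For 2 of the 25, Cebpa in EC and Cebpd in venous EC, only the CSD libraries reached the filter, so that CSD had to lie above. Only 2 passed the adjusted threshold, both for Cebpd, and these are given next with the background share of genes that passed. Over all genes tested, both CSD libraries lay above both HC libraries for 13.8% in EC, 14.5% in capillary EC, 16.6% in arterial EC and 25.8% in venous EC. In the other classes this share was 7.76% in microglia, 13.6% in pericytes, 12.5% in T cells, 17.1% in arterial SMC, 15.7% in choroid plexus cells, 18.5% in ependymal cells and 11.6% in astrocytes. The share of genes with both CSD libraries below both HC libraries was not computed, so the 2 pairs in that order are a description. Pairs share cells, because subtypes are parts of EC, and all share the same 4 libraries.

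**Figure D3:**
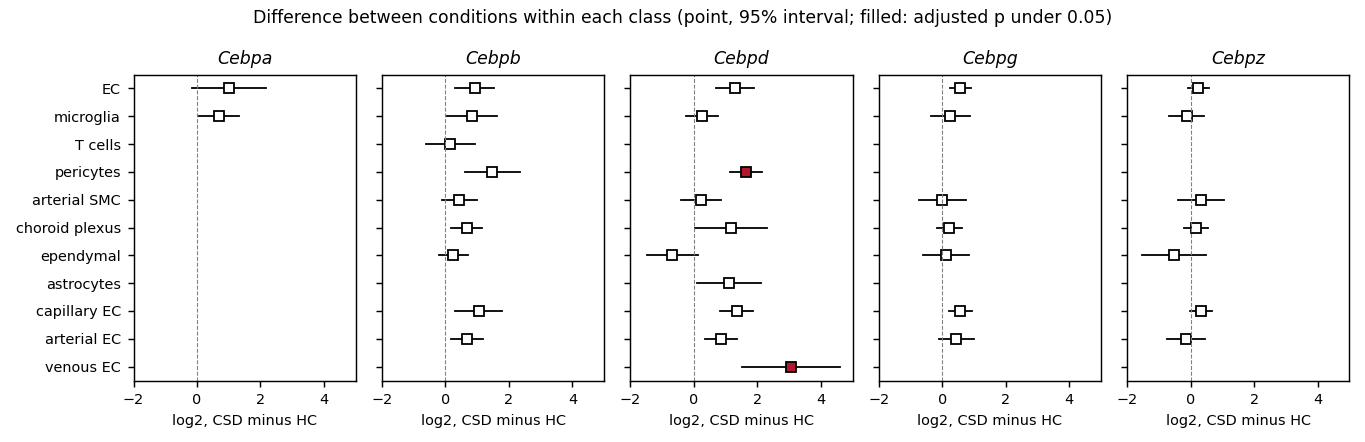
Difference of CSD minus HC on the log2 scale (x axis, point with 95% interval from edgeR) for each tested member, class and EC subtype, with filled points for adjusted p under 0.05. The filled points are Cebpd in pericytes (1.65) and in venous EC (3.06), and Cebpd in ependymal cells is the lowest (-0.67). For Cebpd in venous EC and Cebpa in EC, only the CSD libraries reached the filter on low counts. Their direction was fixed by that filter, so these points are a description.

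Cebpd rose in pericytes after CSD. It measured 747 CPM in CSD 1 and 865 in CSD 2, against 276 in HC 1 and 267 in HC 2, from 51, 164, 25 and 38 UMIs. Both CSD libraries lay above both HC libraries, as for 13.6% of all genes tested in pericytes. The difference was 1.65 ± 0.23 on the log2 scale (SE, 95% interval 1.15 to 2.14, 3.13-fold, edgeR adjusted p = 0.0087). Cebpd was the only gene of 2187 to pass in pericytes, 0.0457%. A UMI was read in 46.0% of 63 cells in CSD 1 (exact 95% interval 33.4 to 59.1) and 55.9% of 127 in CSD 2 (46.8 to 64.7). In HC 1 it was 26.2% of 61 cells (15.8 to 39.1), and in HC 2 20.6% of 155 (14.6 to 27.9). Thinned to 500 UMIs, the shares were 28.0% and 29.1% against 10.9% and 11.4%.

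Of the markers of other cells in pericytes, those of fibroblasts (366 to 369 CPM in CSD, 380 to 387 in HC) and ependymal cells (645 to 718 and 774 to 806) lay lower in CSD, and the sums that follow overlapped between the conditions. The summed EC markers, of which 8 to 10 of 11 were read, came to 739 to 1099 CPM in CSD and 729 to 999 in HC, and arterial SMC markers to 1873 to 2139 and 1822 to 2828 CPM. Cdh5, 1 of the 11 EC markers, was at 0 in 3 of the 4 libraries, whereas 8 to 10 markers of that list were read. Astrocyte markers were 527 to 792 CPM in CSD and 331 to 542 in HC, and microglial markers 127 to 220 and 144 to 281. Cebpd in free RNA was 41.1, 79.0, 27.0 and 46.1 CPM. Immediate-early and dissociation genes summed to 16363 and 24929 CPM in CSD and to 14294 and 24109 in HC. The call was lost with DESeq2 (1.64, adjusted p = 0.15), which called no gene in pericytes. Without single libraries the difference was 1.56 to 1.70. Cebpb in pericytes was also above HC, at 132, 348, 88.4 and 113 CPM (1.47 ± 0.40 on the log2 scale, edgeR adjusted p = 0.89). This was 0.45 without CSD 2 and 1.78 without CSD 1.

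**Figure D4:**
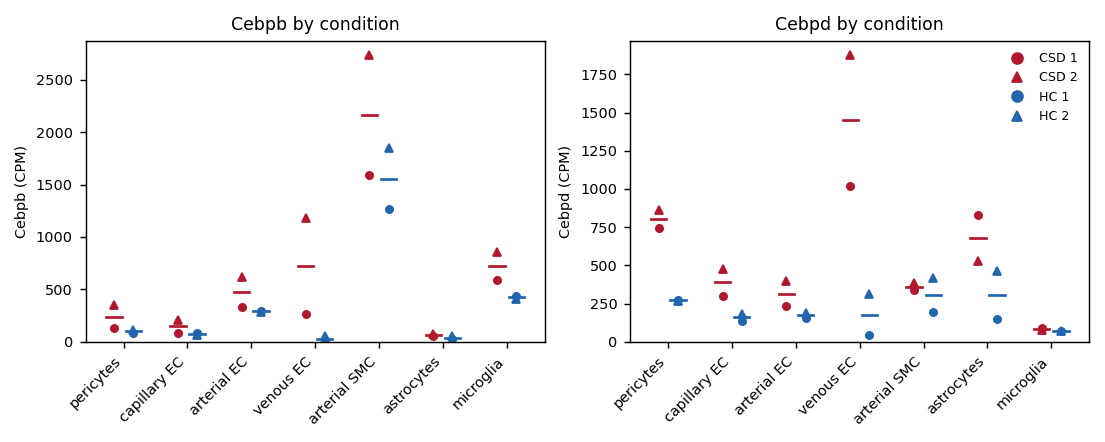
Cebpb (left) and Cebpd (right) in CPM (y axes) for 7 classes and EC subtypes, with one point per library (red CSD, blue HC) and a bar at the mean of each condition. For Cebpd in the classes drawn, the CSD points overlap the HC points only in arterial SMC. They lie above in pericytes, astrocytes, microglia and all 3 EC subtypes, as for 7.76% (microglia) to 25.8% (venous EC) of all genes tested. Ependymal cells, not drawn, ran the other way (34.5 and 53.8 CPM in CSD, 71.9 and 67.4 in HC). Also not drawn are T cells, without a UMI of Cebpd, and choroid plexus cells, with CSD above, as for 15.7% of genes. In venous EC only the CSD libraries reached the filter on low counts.

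Cebpd lay above HC in both CSD libraries in capillary and arterial EC, as did 14.5% and 16.6% of all genes tested there. In venous EC, described below, the filter on low counts fixed this order. In capillary EC Cebpd measured 300 and 479 CPM in CSD 1 and CSD 2, against 136 and 185 in HC 1 and HC 2. The difference was 1.34 ± 0.23 on the log2 scale (SE, 95% interval 0.84 to 1.85, 2.54-fold), with an edgeR adjusted p = 0.058 just over the threshold, and 0.131% of 9916 genes passed (0.121% higher and 0.0101% lower in CSD). DESeq2 called it (adjusted p = 6.48e-05). Without single libraries the difference was 0.99 to 1.63. Of capillary EC, 27.7% and 36.7% had a UMI of Cebpd in CSD and 16.8% and 15.6% in HC.

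In arterial EC, Cebpd measured 236 and 396 CPM in CSD against 156 and 189 in HC (0.86 ± 0.24 on the log2 scale, edgeR adjusted p = 0.53, 0.0316% of genes passed). In all EC it measured 287, 486, 141 and 186 CPM (1.30 ± 0.25, edgeR adjusted p = 0.25; DESeq2 adjusted p = 0.00016), where 0.0371% of genes passed. The libraries did not overlap in either, with CSD above, as for 16.6% of all genes tested in arterial EC and 13.8% in EC. Immediate-early and dissociation genes stood higher in CSD as well: they summed to 23447 and 28241 CPM in CSD EC and to 18001 and 20800 in HC EC, and all 17 had positive log2 differences, with a median of 0.55 against 0.0033 over all genes, 10 at an unadjusted p under 0.05 (6.80% of all genes) and none that passed in edgeR. In the same EC, oligodendrocyte markers summed to 1063 to 1309 CPM in CSD and 742 to 747 in HC, fibroblast markers to 87.4 to 89.3 and 40.4 to 64.2, and Ccr2 monocyte markers to 686 to 891 and 630 to 684. Choroid plexus markers (127 to 363 CPM in CSD, 376 to 597 in HC) and ependymal markers (63.2 to 65.6 and 85.7 to 169) were lower in CSD. The median EC had 1 of the 8 Ccr2 monocyte markers, 1 of the 7 oligodendrocyte markers and 0 of the 8 fibroblast markers. Whether these sums hold RNA of such cells was not tested. The part of the immediate-early and marker genes in the Cebpd difference was not tested either.

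Venous EC gave the widest gap on the fewest cells. Cebpd measured 1021 CPM in CSD 1 and 1878 in CSD 2, from 35 and 70 UMIs in 10 and 17 cells. In HC 1 and HC 2 it measured 42.0 and 313 CPM, from 1 and 6 UMIs in 18 and 17 cells. The fit gave 3.06 ± 0.69 on the log2 scale (edgeR adjusted p = 0.041), where 3.31% of 453 genes passed and 3.09% were higher in CSD. Cebpd passed the filter on low counts only through the CSD libraries, as a gene that had to differ, so the call is a description. It was lost without HC 1 (2.21, adjusted p = 0.13) and with a stricter gate (3.07, adjusted p = 0.082). Several marker sums moved with it in these cells. Ccr2 monocyte markers were 1225 to 1449 CPM in CSD and 418 to 672 in HC, pericyte markers 215 to 292 and 42.0 to 52.2, and EC markers 15403 to 21811 and 23652 to 26378. Arterial SMC markers were lower in CSD, at 215 to 233 CPM against 252 to 313, and all 10 neutrophil markers were at 0. Over all EC, the median cell had 1 of the 8 Ccr2 monocyte markers and 0 of the 7 pericyte markers. Whether the marker sums hold RNA of such cells was not tested, nor was their part in the Cebpd gap. Cebpb was read there at 263, 1180, 0 and 52.2 CPM and was not tested.

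The Cebpb level of EC in CSD 2 rested on a few deep cells. It measured 154, 269, 133 and 99.1 CPM in CSD 1, CSD 2, HC 1 and HC 2 (0.92 ± 0.27 on the log2 scale, edgeR adjusted p = 0.51). EC of over 10000 UMIs numbered 21, 32, 35 and 5 in the 4 libraries. In these cells Cebpb reached 317, 1172, 325 and 421 CPM, while in the remaining EC it was 137, 64.9, 85.4 and 91.0 CPM. The 32 deep cells of CSD 2, 2.63% of its EC, held 583 of its 726 Cebpb UMIs. Their arterial SMC markers summed to 12687 CPM, against 452 in the other EC of CSD 2, and EC markers to 15175 against 26731. Without the deep cells the difference was 0.27 in EC and 0.09 in capillary EC, in place of 1.04 there. Whether these barcodes hold more than 1 cell was not tested.

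The Cebpd difference was as large without the deep EC. Among EC of up to 10000 UMIs it measured 266 and 439 CPM in CSD 1 and CSD 2, against 114 and 183 in HC 1 and HC 2, and the fitted difference was 1.31 on the log2 scale (edgeR adjusted p = 0.37). Among the deep EC it was 491, 693, 251 and 298 CPM. In both sets the CSD libraries lay above the HC libraries, with only 17 UMIs in 5 cells for the deep EC of HC 2. The share of all genes with this order was not computed for either set, so the order is a description.

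**Figure D5:**
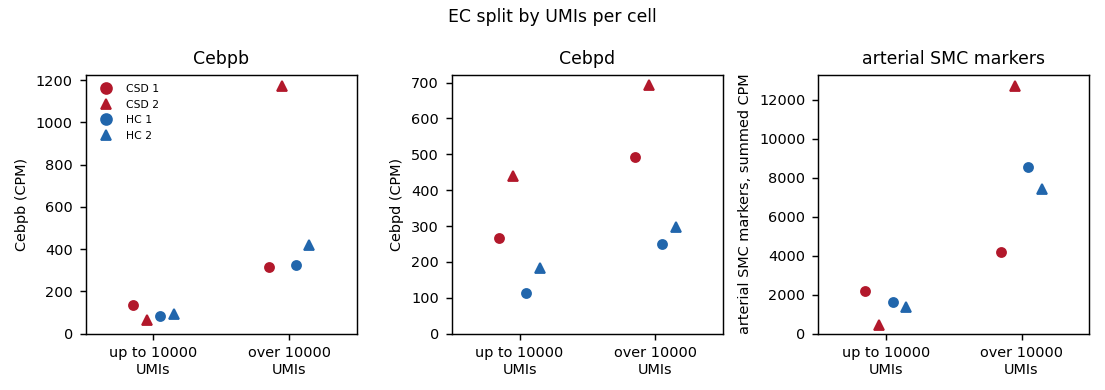
EC of up to and over 10000 UMIs (x axes), with Cebpb in CPM (left), Cebpd in CPM (middle) and the summed CPM of 7 arterial SMC markers (right), one point per library (red CSD, blue HC). The deep EC of CSD 2 stand out in Cebpb (1172 CPM) and in SMC markers (12687 CPM). Cebpd lies higher in CSD in both sets, an order whose share over all genes was not computed.

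Cebpg was higher in CSD in EC by a smaller step. It measured 138, 132, 89.8 and 99.98 CPM in CSD 1, CSD 2, HC 1 and HC 2. Its replicates lay close together and both CSD libraries lay above both HC libraries, as for 13.8% of all genes tested in EC. The difference in Cebpg was 0.57 ± 0.15 on the log2 scale (1.49-fold, edgeR adjusted p = 0.38). Cebpz in EC measured 85.5, 85.9, 78.8 and 72.4 CPM (0.24 ± 0.14, 95% interval -0.09 to 0.57). Cebpa in EC lay at 2.15 to 4.54 CPM, below free RNA.

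In microglia, Cebpa, Cebpb and Cebpd were above HC in both CSD libraries, as were 7.76% of all genes tested, and none passed. Cebpa, at the levels given above, differed by 0.70 ± 0.26 on the log2 scale (SE, 1.62-fold, edgeR adjusted p = 1). Cebpb measured 587, 860, 442 and 409 CPM (0.83 ± 0.33, 1.77-fold, adjusted p = 1), and was 0.43 without CSD 2. No gene of 10041 passed in microglia (0%), 123 had an unadjusted p under 0.05 and DESeq2 called 1. The microglia of CSD 2 were the deepest, with a median of 4902 UMIs. Thinned to 500 UMIs, Cebpa was read in 12.6% and 10.6% of CSD microglia against 8.88% and 6.66% of HC microglia, and Cebpb in 24.04% and 28.9% against 17.3% and 16.6%. Immediate-early genes overlapped, at 28776 to 33526 CPM in CSD and 27845 to 33684 in HC. Cebpd in microglia, at 90.2, 78.6, 70.5 and 73.9 CPM, differed by 0.26 ± 0.21 on the log2 scale. Cebpg differed by 0.26 ± 0.26, and Cebpz lay below HC at 162, 154, 186 and 168 CPM (-0.12 ± 0.23), an order whose share over all genes was not computed.

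The remaining classes gave no call for a member. In astrocytes, Cebpd measured 828, 532, 151 and 466 CPM (1.10 ± 0.52 on the log2 scale, edgeR adjusted p = 1, 0.0579% of genes passed), and was 0.55 without HC 1 and 2.18 without HC 2. Immediate-early and dissociation genes summed there to 8515 to 12889 CPM in CSD and 7101 to 7825 in HC. Of these, 13 of 15 tested were positive and none passed, and their part in the Cebpd difference was not tested. In ependymal cells Cebpd ran the other way, at 34.5 and 53.8 CPM in CSD against 71.9 and 67.4 in HC (-0.67 ± 0.37). The share of all genes in that order was not computed. In arterial SMC, where Cebpb is highest, the conditions overlapped for Cebpb (0.44 ± 0.26, 95% interval -0.11 to 0.998) and for Cebpd (0.22 ± 0.29). In T cells Cebpb measured 320, 335, 352 and 275 CPM (0.15 ± 0.36). Choroid plexus cells had Cebpb at 60.7, 114, 45.7 and 59.6 CPM (0.67 ± 0.23, edgeR adjusted p = 1, 0.061% of genes passed).

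Whether the CSD effect on a member differed between classes was tested with a class by condition term against EC. None of the members tested passed. For Cebpd the effect in microglia minus that in EC was -0.99 ± 0.36 on the log2 scale (edgeR, unadjusted p = 0.015, adjusted p = 1), and no gene of 11671 passed. The effect in pericytes minus that in EC was 0.27 ± 0.32 (adjusted p = 1, 0.0383% of genes passed). For choroid plexus cells minus EC it was 0.10 ± 0.44 (0.00848% of genes passed).

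The genes around the C/EBP factors were read from 5 lists. These were chosen with earlier results of these data known, so counts and medians over them are a description. Of 21 genes with known C/EBP control in myeloid and acute-phase responses, 12 were tested in EC and 1 was higher in CSD: Lcn2, a secreted iron-binding acute-phase protein, at 56.0, 90.0, 2.45 and 1.72 CPM (5.15 ± 0.37 on the log2 scale, edgeR adjusted p = 0.0070), where 0.0371% of all genes were higher. The list's median was 0.32 and that of all genes 0.0033. In capillary EC, where 0.121% of all genes were higher, 2 of 11 were, Lcn2 at 39.7, 17.7, 1.25 and 1.63 CPM and Cxcl1, a neutrophil-attracting chemokine, at 139, 131, 63.3 and 52.8 CPM (1.28 ± 0.17, edgeR adjusted p = 0.025). Lcn2 reached the filter on low counts only through the CSD libraries in both sets, so its calls are a description. Cxcl1 reached the filter in every library, but it comes from the same list chosen with results known. In venous EC the 4 genes of that list that could be tested, Lcn2, Cxcl1, Cxcl2 and the prostaglandin synthase Ptgs2, were all higher. They reached the filter through the CSD libraries and had 0 to 261 CPM in HC, so the count is no support.

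No gene of these lists passed in microglia, pericytes, arterial SMC, choroid plexus cells, ependymal cells, astrocytes, T cells or arterial EC. A list of 19 genes of IL-6, STAT3, IL-1 and glucocorticoid signalling mixed parts of these pathways with genes that respond to them. Of these, 16 were tested in EC and none passed in edgeR (8 at an unadjusted p under 0.05, against 6.80% of all genes, 12 positive, median log2 difference 0.38). In microglia 18 were tested and none passed (2 at an unadjusted p under 0.05, against 1.22% of all genes, 13 positive, median 0.28). In venous EC, where 3.31% of all 453 genes passed, 1 of 4 tested genes of this signalling list did. This was Nfkbia, an inhibitor of NF-kB, at 5280, 4722, 1134 and 1201 CPM (2.05 ± 0.39 on the log2 scale, edgeR adjusted p = 0.022). Of 15 partners and modulators such as Atf4 and Trib1, 12 were tested in EC and 13 in microglia, with none that passed in edgeR (4 and 0 at an unadjusted p under 0.05) and medians of 0.05 and 0.03. In pericytes 9 genes of the signalling list were tested, with a median of -0.0031, and 4 partners with a median of 0.23. The 2 controlled genes tested there had a median of 1.53, both positive, 1 at an unadjusted edgeR p under 0.05 (5.03% of all genes) and none that passed. Of these 2, Cxcl1 reached the filter on low counts only through the CSD libraries and had to be positive, so this median is no support. Of the further zipper genes of the family, Ddit3 was tested in EC (0.02 on the log2 scale) and microglia (-0.13), and Cebpe in neither.

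The genes most like each member in their mean level over the 8 tested classes were found by Pearson's r of log2(CPM + 10) among 6938 genes. For Cebpa they were Capn3 (r = 0.996), Adgre1 (0.986), a macrophage surface receptor, and Ptafr (0.985). For Cebpd they were Ash1l (0.979), Hmgxb4 (0.974) and Brd3 (0.966), and for Cebpb Tmem131l (0.964), Kmt5a (0.945) and Nop58 (0.933). Cebpg lay nearest to Ctsh (0.941), Sqstm1 (0.918) and Erf (0.916), and Cebpz to Rhog (0.983), Etv3 (0.979) and Mex3c (0.977). The 8 points come from the same libraries and differ in depth, so r describes these classes only.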

How the data were processed

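The authors deposited, for each of the 4 libraries, a matrix of raw UMI counts per gene and barcode from the 10x Chromium 3′ V3.1 kit. The submitters' processing notes name Cell Ranger 4.0 and GRCm38/mm10, the paper's methods another release and the matrix header 3.1.0. No cell calling or normalization had been applied, and every column belonged to a library.

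Cells (14415) were filtered as given above and gated into a class where at least 3 of its markers were read and at least 2 more than of any other class, with 2 markers and a lead of 1 for EC subtypes. No doublets were removed, and leaving out cells over 10000 UMIs was an alternative. Counts were summed per library and class and compared with edgeR 4.0.16 (filterByExpr, TMM, glmQLFit, glmQLFTest, two-sided, Benjamini-Hochberg over all genes of the class, threshold 0.05) in R 4.3.3. Class levels used a fit with class and library terms. DESeq2 1.42.0, no TMM, no filter on low counts, other cell and gate limits, each library left out and a replicate block were alternatives. The fits were tested on simulated counts. Intervals of shares are exact (Clopper-Pearson, 95%), and these and the floor of 3 counts cover counting error only. Depth ranged from 27297599 to 30361474 UMIs per library.

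The members, gene lists and marker lists were chosen with earlier results of these data known. The text names the 5 members, up to 4 genes with the smallest p of each list among those that passed, and the 3 genes most like each member. The split of EC levels at 10000 UMIs was chosen after seeing the data. Promoters came from RefSeq. Behaviour was not analysed here.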

Additional observations from a re-analysis of the deposited data

How the results depend on the processing

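In all, 639 values of 65 results were recomputed under the alternatives. Of those for CSD against HC in single members, 408 kept direction and side of the threshold, 20 gained and 4 lost a call and 15 changed direction. Of the differences between neighbouring classes, 78 kept their call, 19 lost it and 1 turned. With 2 pools per condition, few UMIs in venous EC and pericytes and free RNA in every droplet, small effects could not be resolved, and an absent call is no evidence of equal levels. The cause of each change below was not tested. Leaving out a library leaves 1 condition with 1 pool, assumed to vary like the other condition's pools, and in EC, capillary EC and pericytes such fits called more genes than the full fit, so that passing in them is no sign of stability.

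The number of genes called in EC, 4, was 51 with DESeq2, 11 with no filter on low counts, 9 in cells of at least 1000 UMIs, 1 without cells over 10000 UMIs and 8 to 135 without single libraries. In microglia no gene was called by edgeR (123 at an unadjusted p under 0.05), 1 by DESeq2, 18 with no filter and 0 to 8 without single libraries. In pericytes 1 was called, against 0 with DESeq2, 3 with no filter, 2 at a limit of 10% mitochondrial UMIs, 2 with a complexity of at least 0.8 and 4 to 20 without single libraries. In capillary EC 13 were called, against 45 with DESeq2, 252 with no filter, 4 in cells of at least 1000 UMIs, 22 at the 10% limit, 7 without cells over 10000 UMIs, 7 with a stricter gate and 67 to 493 without single libraries.

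Cebpd in EC (1.30 on the log2 scale) was called by DESeq2 (1.30, adjusted p = 0.00016) and ranged from 0.88 to 1.61 without single libraries, passing without CSD 1 (adjusted p = 0.0037). Cebpb in EC ranged from 0.47 to 1.25, passing without CSD 1 (adjusted p = 0.017). Cebpd in pericytes was 1.64 with DESeq2 (adjusted p = 0.15) and 1.56 to 1.70 without single libraries. Cebpd in capillary EC passed with DESeq2 (1.34), with no filter (1.35), at the 10% mitochondrial limit (1.44) and without each library (0.99 to 1.63). Cebpd in venous EC missed the threshold with a stricter gate (3.07), ranged from 2.21 to 4.96 without single libraries, and gave no value without cells over 10000 UMIs.

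Some directions turned. Cebpg in arterial SMC (-0.0062) was 0.028 without TMM, 0.012 with no filter, 0.031 in cells of at least 1000 UMIs, 0.085 without cells over 10000 UMIs, 0.012 with a stricter gate and -0.22 to 0.14 without single libraries. Cebpd in arterial SMC was -0.11 without cells over 10000 UMIs and -0.24 to 0.83 without single libraries. Cebpz in arterial EC was 0.27 without cells over 10000 UMIs, 0.0019 with a stricter gate and -0.45 to 0.037 without single libraries. Cebpb in T cells was -0.056 at the 10% limit, Cebpg in ependymal cells -0.12 to 0.30 without single libraries, and Cebpg in EC minus microglia 0.096 without TMM. Without single libraries, the Cebpd effect in choroid plexus cells minus EC was -0.50 to 1.65, and the Cebpb effect minus that in EC was -0.27 to 0.84 in pericytes, -0.31 to 0.12 in microglia and -0.63 to 0.19 in choroid plexus cells.

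The mean share of cells with a UMI, thinned to 500 UMIs, was 9.68% for Cebpa in microglia, 42.7% for Cebpb in arterial SMC, and 19.8%, 9.83% and 10.2% for Cebpd in pericytes, capillary EC and arterial EC.

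The sources do not say whether libraries of the same number were prepared together. The difference between libraries 1 and 2 in CSD was correlated over genes with that in HC. This correlation ran from -0.069 in arterial SMC to 0.75 in microglia (1456 genes), from 2 pairs. The microglial differences given above do not pair libraries by number. With the replicate number as a block, 125 genes were called in EC, 2 in microglia, 6 in pericytes and 4 in capillary EC. Under this block, edgeR called Cebpd in EC (1.27, adjusted p = 0.00050), arterial EC (0.81, adjusted p = 0.029) and pericytes (1.65, adjusted p = 7.06e-08). It was not called in venous EC (3.08, edgeR adjusted p = 0.089). The correlation was only 0.0029 in EC, 0.26 in pericytes and 0.12 in arterial EC. A block on 4 libraries leaves little from which to estimate the spread between pools. It called more genes than the full fit in EC, microglia and pericytes and fewer in capillary EC. These calls are therefore no sign of stability. The number of genes called in arterial EC under the block was not computed.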
